A study of Rattus norvegicus with 10 samples.

Results

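The genes described here encode the alpha2, alpha3, alpha4, alpha5 and delta subunits of the GABA-A receptor (*Gabra2*, *Gabra3*, *Gabra4*, *Gabra5* and *Gabrd*). They were chosen by symbol, and all 5 had a row among the 12828 genes of the deposited table. RNA had been extracted from the arcuate nucleus (ARC) of Wistar rat mothers, taken upon parturition and cut free hand from a slice of frozen brain. Of the 10 dams, 5 had received folic acid (5X-FA) and 5 had received methylfolate (5X-MTHF) during pregnancy, both at 5X the recommended amount. No group on the recommended amount was sequenced in the samples used here.

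The study asked whether the 2 folate forms differ in their effect on gene expression in the ARC. For these subunits the question could not be tested here. The table holds 10 columns of values per library whose headings match no label of a dam, so that no value could be placed in a diet group. What could be read is the average log2 CPM of each gene. CPM is the read count of a gene scaled to a fixed library size, and the authors averaged it over all libraries of both diets. Each value below is therefore a single pooled number, with no SD and no n, and the depth of each library was not obtained. A CPM is not divided by transcript length, and transcript lengths were not at hand. An order of CPM values is thus an order of reads, from which no order of transcript numbers was drawn. In bulk tissue, fewer cells of a type and less RNA per cell cannot be told apart.

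The GABA-A receptor is a chloride channel made of 5 subunits around a pore, and GABA opens it to inhibit the neuron. Most receptors hold alpha, beta and gamma subunits, and the alpha subunit shapes the affinity for GABA and the response to benzodiazepines. Receptors with alpha2 or alpha3 are mostly found at synapses. The delta subunit takes the place of gamma in receptors outside the synapse, often together with alpha4, and these receptors carry a steady inhibitory current that neurosteroids enhance. Receptors with alpha5 are also largely extrasynaptic, and are abundant in the hippocampus.

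The annotated promoters of 4 of these genes differed sharply in composition. They are shown because CG dinucleotides, the sites of DNA methylation, separate one of the genes from the others. RefSeq entries on build GRCr8 were matched by symbol for 4 of the 5 genes, without *Gabra2*. Each gene has a single annotated start here. Whether that start is the one used in the ARC, or the start of the row in the deposited table, was not tested. For *Gabra3* the second is in doubt. Between the builds, its annotated start is shifted further from the 5′ end of its row than those of the flanking *Gabre* and *Gabrq*. The *Gabra3* window may therefore lie upstream of the start of the row whose reads were counted. Each sequence is the stretch of 250 bases just before the annotated start, read 5′ to 3′ on the strand of the gene, and capitals mark each CG dinucleotide. The *Gabra3* window lies at chrX:155543871-155544120 on the minus strand, the *Gabra4* window at chr14:36944497-36944746 on the plus strand, and the *Gabrd* window at chr5:171252710-171252959 on the minus strand.
Gabra3: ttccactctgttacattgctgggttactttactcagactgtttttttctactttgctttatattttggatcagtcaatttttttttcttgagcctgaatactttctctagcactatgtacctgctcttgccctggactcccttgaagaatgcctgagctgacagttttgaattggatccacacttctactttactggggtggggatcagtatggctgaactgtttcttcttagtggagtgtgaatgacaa
Gabra4: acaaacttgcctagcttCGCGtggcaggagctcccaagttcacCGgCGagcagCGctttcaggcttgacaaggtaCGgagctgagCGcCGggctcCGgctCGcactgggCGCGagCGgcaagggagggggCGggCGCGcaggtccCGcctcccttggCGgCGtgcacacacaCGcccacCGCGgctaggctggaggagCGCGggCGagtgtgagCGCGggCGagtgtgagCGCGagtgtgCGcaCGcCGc
Gabrd: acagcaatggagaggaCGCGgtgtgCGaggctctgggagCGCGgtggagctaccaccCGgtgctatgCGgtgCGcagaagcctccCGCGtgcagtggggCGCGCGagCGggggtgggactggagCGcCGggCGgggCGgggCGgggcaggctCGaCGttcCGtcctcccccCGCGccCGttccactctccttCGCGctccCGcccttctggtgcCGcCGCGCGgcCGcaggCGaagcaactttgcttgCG

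The *Gabra3* window held 0 CG dinucleotides and had a GC content of 40.4%. The windows of *Gabra4*, *Gabrd* and *Gabra5* held 33, 35 and 37 CG dinucleotides, with GC contents of 71.6%, 74.0% and 76.4%. Over all 33469 RefSeq promoters of the same length the medians were 5 CG dinucleotides and 51.2% GC. By CG count, the 3 GC-rich promoters stood at percentiles 97.0 (*Gabra4*), 97.8 (*Gabrd*) and 98.3 (*Gabra5*), whereas 7.83% of all promoters shared the absence of CG with *Gabra3*. Promoters of genes with a row in the deposited table were richer in GC, with medians of 16 CG dinucleotides and 60.4% GC. Among these 10623 promoters, *Gabra4* stood at percentile 93.3 by CG count, and 1.20% had no CG. A spread in CG count was not particular to these genes. Among the other subunit genes with an entry, *Gabrg3* held 33 CG dinucleotides, *Gabre* 20 and *Gabrq* 17. *Gabrb1* and *Gabrb2* held 8 each, and *Gabrg1* held 6.

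**Figure D1:**
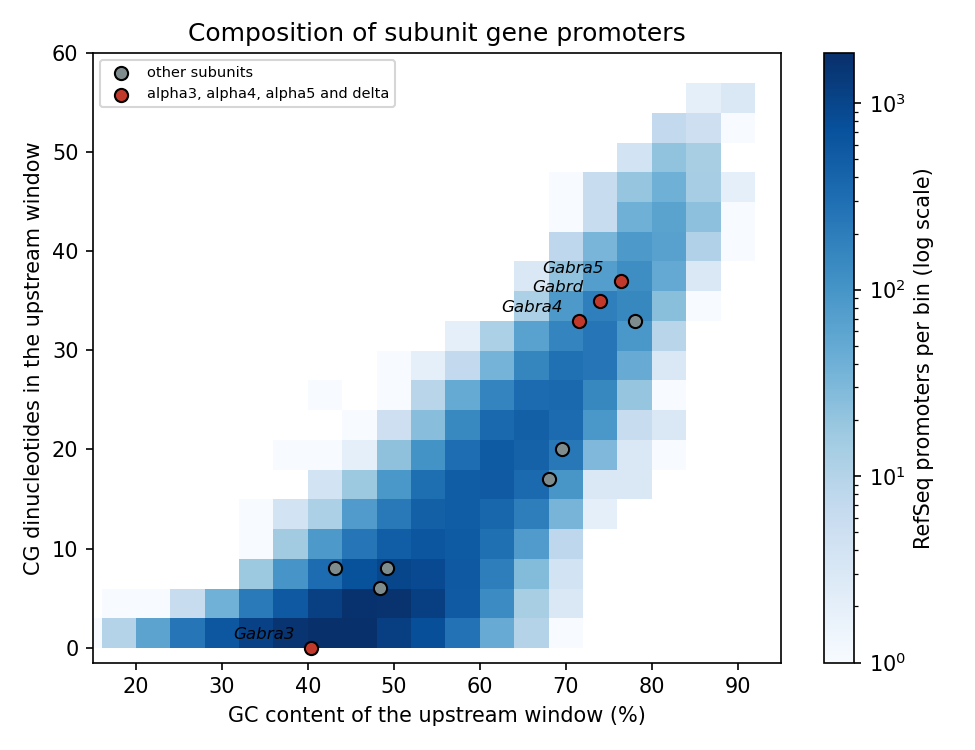
GC content in percent (horizontal axis) against the number of CG dinucleotides (vertical axis) in the window of 250 bases before the annotated start. Blue shading counts the 33469 RefSeq promoters on a log scale, red points are *Gabra3*, *Gabra4*, *Gabra5* and *Gabrd*, and grey points are the 6 other subunit genes with an entry. *Gabra3* sits on the bottom edge with 0 CG, and the other red points lie together at 33 to 37 CG.

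Of 5 motifs searched on both strands, 3 were found in at least 1 of the 4 windows. With only 4 windows, none of these counts was tested against its share among other promoters. The GC box, GGGCGG, which Sp1 binds, occurred in the windows of *Gabra4*, *Gabra5* and *Gabrd* but not in that of *Gabra3*. It occurred in 30.5% of all promoters and in 57.8% of those of genes with a row. The letters of the TATA box core, TATAAA, were found in the *Gabra3* window alone among the 4 genes, against 12.9% of all promoters and 6.38% of those of genes with a row. They lie on the strand opposite to the gene (TTTATA as printed), so no TATA box of *Gabra3* is claimed. The CCAAT box, CCAAT, was likewise found in that window alone, against 34.0% and 34.6%, and 1 of 4 windows is near those shares. This CCAAT too lies on the opposite strand (ATTGG as printed). The full cyclic AMP response element, TGACGTCA, and the EGR site, GCGTGGGCG, were found in 0 of the 4 windows. Their shares were 1.59% and 0.478% among all promoters, and 2.75% and 1.02% among those of genes with a row. Over the windows of all 10 subunit genes with an entry, the GC box occurred in 6, the CCAAT box in 4 and the TATA box core in 1. The GC box holds a CG dinucleotide, so its count is not separate from the CG count.

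The chromosomal positions of the 5 genes followed the known clusters of the family. In the Rnor_6.0 coordinates of the deposited table, *Gabra4* (ENSRNOG00000002336) lies on chromosome 14 from 39154529 to 39231695. *Gabra2* (ENSRNOG00000002349) lies on the same chromosome from 39661968 to 39798302. Between them stretch 430 kb with 0 other rows of the table, and the beta1 gene *Gabrb1* and the gamma1 gene *Gabrg1* flank the pair. *Gabra4* is 41.9 kb from *Gabrb1*. In the RefSeq promoter table *Gabrb1* is on the minus and *Gabra4* on the plus strand, so that the pair is transcribed away from each other.

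*Gabra5* (ENSRNOG00000010803) lies on chromosome 1 from 112833944 to 112947451, 22.0 kb from the gamma3 gene *Gabrg3*. *Gabra3* (ENSRNOG00000056558) lies on chromosome X from 152414615 to 152642531, between the epsilon gene *Gabre* and the theta gene *Gabrq*, at distances of 177 kb and 210 kb. *Gabrd* (ENSRNOG00000016385), on chromosome 5 from 172797450 to 172809353, has no other subunit gene on its chromosome in the table. With a span of 11.9 kb it was the shortest of the 11 subunit genes described here, against 77.2 kb to 228 kb for the 4 alpha genes. The rows next to it by position were *Prkcz*, an atypical protein kinase C, and *Cfap74*, a cilia protein, at 28.0 kb and 15.7 kb.

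**Figure D2:**
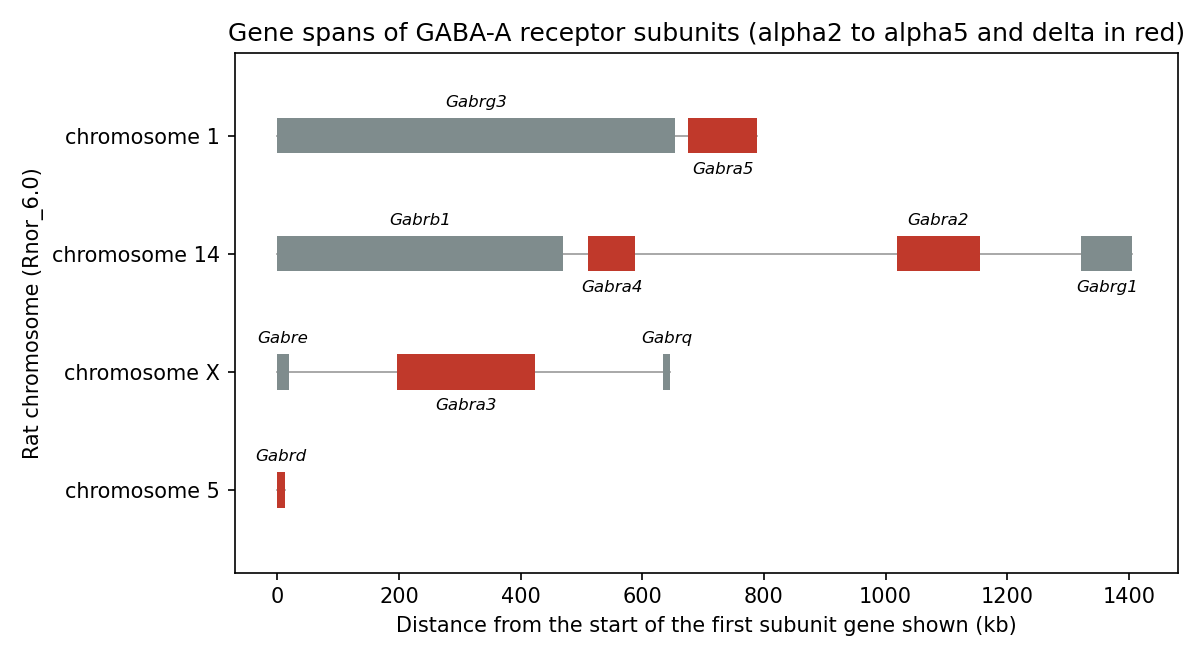
Gene spans of 10 subunit genes on the chromosomes of the 5 genes, drawn to scale, as distance in kb from the start of the first subunit gene shown on each chromosome (horizontal axis). Red bars are *Gabra2*, *Gabra3*, *Gabra4*, *Gabra5* and *Gabrd*, and grey bars are 5 other subunit genes. The 4 red alpha genes lie beside other subunit genes, with 430 kb between *Gabra4* and *Gabra2*, and *Gabrd* stands alone with a span of 11.9 kb.

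*Gabra5* shares its position with another gene. The row of *Luzp2*, a leucine zipper protein, runs from 111849998 to 113527735 on chromosome 1, a span of 1678 kb that covers *Gabrg3* and *Gabra5*. *Luzp2* has an average log2 CPM of 6.52. The library was made to keep strand, but the strand setting of the counting is not given in the sources used here, and whether exons of the genes overlap was not tested, so the value of *Gabra5* is uncertain to that extent. The other 4 genes overlapped 0 rows.

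The 4 alpha genes had similar pooled read levels, and *Gabrd* was far lower. *Gabra2* had an average log2 CPM of 6.88 in the authors' table, which corresponds to a CPM of 118. *Gabra4*, the usual partner of delta, followed at 6.55, a CPM of 93.6. *Gabra3* was at 6.29 (CPM 78.2) and *Gabra5* at 6.04 (CPM 65.8). These 4 genes thus lay within 0.84 log2 units, or 1.80-fold, of each other in reads. Whether neighbours in this order differ beyond the spread between dams could not be tested.

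*Gabrd* had an average log2 CPM of 3.55, a CPM of 11.8, the lowest of the 11 subunits described here. It lay 2.48 log2 units below *Gabra5* and 2.99 below *Gabra4*, so that the CPM of *Gabra4* was 7.97 times as high. In the whole table, *Gabra2*, *Gabra4*, *Gabra3* and *Gabra5* stood at percentiles 85.4, 81.1, 76.9 and 72.4, and *Gabrd* at 23.6. The quartiles of all rows were 3.65, 4.94 and 6.18 on the same log2 scale. Hence 3 of the genes were above the upper quartile, *Gabra5* was between the median and the upper quartile, and *Gabrd* was below the lower quartile.

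The rows next above and below each gene in read level, given as a scale, were *Btbd3* and *Rab5c* for *Gabra2*, and *Entpd4* and *Cc2d1a* for *Gabra4*. For *Gabra3* they were *Chmp4bl1* and *Aida*, for *Gabra5* *Selenom* and *Ggps1*, and for *Gabrd* *Pus1* and *Ndufaf8*.

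**Figure D3:**
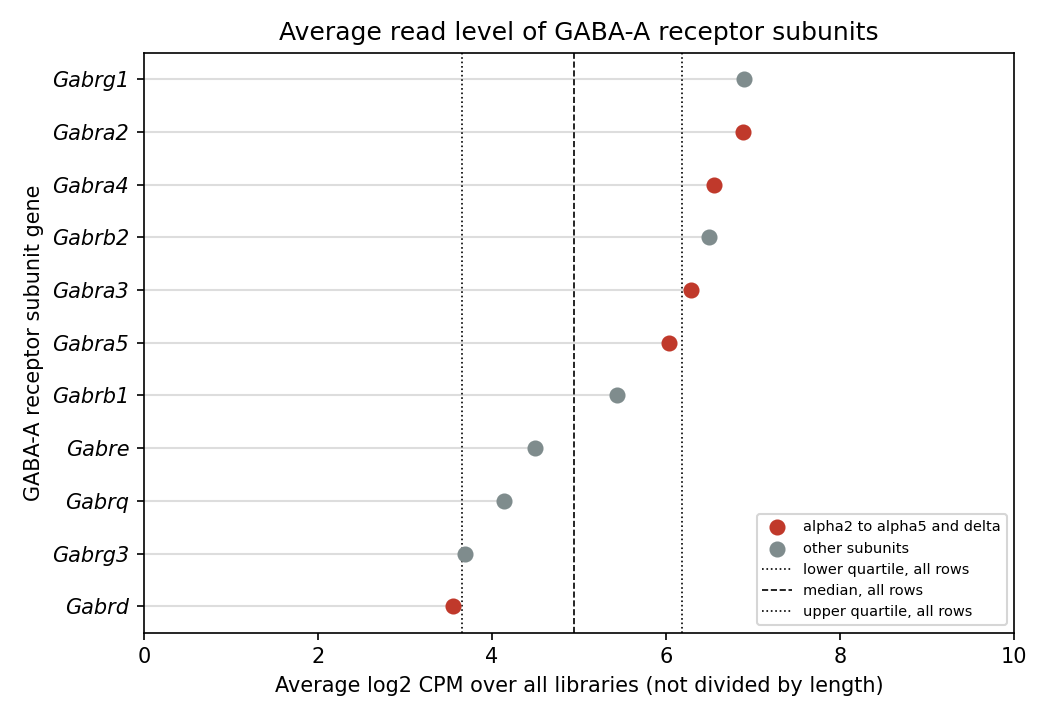
Average log2 CPM over all libraries (horizontal axis, not divided by transcript length) of 11 GABA-A receptor subunit genes with a row. Each point is one pooled value without error bars, red for *Gabra2*, *Gabra3*, *Gabra4*, *Gabra5* and *Gabrd*, and the vertical lines are the quartiles of all 12828 rows. The red alpha genes lie between 6.04 and 6.88, and *Gabrd* is at the bottom at 3.55.

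Of 11 other listed receptor subunits, 6 had a row and are described here as a scale. No row was found for *Gabra6*, *Gabrp*, *Gabrr1*, *Gabrr2* and *Gabrr3*. *Gabra2* lay next to the gamma1 gene *Gabrg1* in read level, and *Gabra4* next to the beta2 gene *Gabrb2*. CPM values were turned back from the log2 averages, whose prior count is not given in the sources used here, so they are approximate.

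The gamma subunits, which occupy the position that delta takes, ranged widely. *Gabrg1* had an average log2 CPM of 6.90, and *Gabrg3* was at 3.69, next to *Gabrd*. Among the beta subunits, with which each alpha must assemble, *Gabrb2* was at 6.49 and *Gabrb1* at 5.43. The epsilon and theta genes that flank *Gabra3* were at 4.49 (*Gabre*) and 4.13 (*Gabrq*), below *Gabra3* in reads. Of these 6 other subunits, 3 were above the median of all rows.

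Of 19 listed genes whose proteins anchor and carry these receptors, 19 had a row and 18 were above the median of the table, with a median log2 CPM of 7.02. The highest were *Nsf*, which drives membrane fusion, at 9.76, *Hap1*, a transport adaptor, at 9.23, and *Gabarapl1*, a relative of the GABA-A receptor-associated protein, at 9.09.

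Of 8 genes of GABA synthesis, transport and breakdown, 7 had a row and 6 were above the median. Among them the GABA-producing enzymes *Gad2* and *Gad1* were at 9.67 and 8.79, and *Abat*, which breaks GABA down, was at 8.60. Among 9 genes of the chloride gradient, which sets the direction of current through the receptor, 8 had a row and 7 were above the median. They were led by the chloride exporter *Slc12a5* (8.64), the importer *Slc12a2* (8.35) and the kinase *Wnk1* (8.14). The GABA-B receptor genes *Gabbr1* and *Gabbr2* were at 10.32 and 8.05, with 2 of 5 listed genes in the table.

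A further list joined genes of neurosteroid synthesis, since receptors with delta are sensitive to neurosteroids, with genes of the benzodiazepine-site peptide. Of its 12 genes 6 had a row, and 1 was above the median of the table. That gene was *Dbi*, which encodes the peptide and is no enzyme of steroid synthesis, at 7.32. The 5α-reductase gene *Srd5a1* was at 4.62 and its relative *Srd5a3* at 4.07.

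Genes listed as markers of the labelled tissue had rows beside genes listed as markers of other regions. Of 14 ARC markers 11 had a row, from 0.08 to 6.02 log2 CPM, with *Cartpt* (6.02), *Th* (5.20) and *Pomc* (4.67) highest. Of these 11, only 2 were above the median of the table and 0 were above its upper quartile. The neuropeptide gene *Agrp*, a defining marker of the ARC, was at 1.42. Striatal markers had a row in 12 of 12 cases (4.26 to 7.68), thalamic markers in 10 of 10 (0.49 to 8.09), and markers of cerebral cortex and hippocampus in 9 of 12 (1.96 to 8.44). Markers of the hypothalamus as a whole had a row in 12 of 12 cases (1.88 to 9.24), and glial and vessel markers in 9 of 10 (3.83 to 12.59). Above the median of the table were 9 of the striatal, 4 of the thalamic and 3 of the cortical and hippocampal markers. For the hypothalamus as a whole the number was 5, and for glia and vessels 7. The 3 cortical and hippocampal markers above it were *Camk2a* (8.44), *Slc17a7* (7.17) and *Wfs1* (6.72). Others of that list were lower, such as *Tbr1* (3.34), *Neurod6* (2.40) and *Fezf2* (1.96). The thalamic list was led by *Slc17a6* (8.09) and *Calb2* (7.43), with *Rora* (2.34) and *Gbx2* (0.49) lowest. How far each listed gene is particular to its region was not tested. The counts alone therefore do not show that tissue of these regions was present. The alpha4 and delta subunits are well known from thalamus, striatum and dentate gyrus. Whether thalamus, striatum or dentate gyrus had any part in the pooled levels of *Gabra4* and *Gabrd* was not tested.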

How the data were processed

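RNA of the ARC of 10 dams (5 5X-FA, 5 5X-MTHF, groups from the sample titles) was sequenced after poly-A selection. Per the labels and methods, reads were trimmed with Trim Galore 0.5.0, aligned to Rnor_6.0 with STAR 2.6.0c and counted with HTSeq 0.6.1p2, with a minimum of 10 reads per gene. The authors deposited one table, and its average CPM on the log2 scale, pooled over all libraries, is the single measurement used. It is not divided by length. The methods name DESeq2 for the comparison, but the table holds an F statistic, which DESeq2 does not give, so the tool behind the average is not given in the sources used here.

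Another 10 columns per library, headed by numbers alone, match no label and were used in no step. Another 4 columns hold the authors' own comparison of the diets (fold change, test statistic, p-value and its adjusted form) and were not used either. The planned tests between diets were therefore not made, and the protein comparison was left out as no protein sequences were at hand.

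Rank and percentile (rows at or below the gene) were computed over all 12828 rows (22 repeated symbols kept). Promoter windows of 250 bases come from RefSeq on GRCr8, and no coordinates were exchanged between the builds. Values were computed in Python 3.11.15 with pandas 2.3.3 and numpy 2.4.6 (intervals with scipy 1.17.1, plots with matplotlib 3.10.9), and the functions were tested on simulated data. Some genes of the lists are not reported here and enter no count of a list. The genes and lists were chosen with earlier results of these data known. Named genes are the 5 members, the other subunits, the 3 highest of each GABA list as reported, and the rows next to each member. The 3 highest ARC markers are named too. *Prkcz*, *Cfap74* and *Luzp2* (by position) and *Agrp* were chosen after their values were seen. So were the cortical, hippocampal and thalamic markers that are named.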

Additional observations from a re-analysis of the deposited data

How the results depend on the processing

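The percentile of each of the 5 genes was recomputed over the protein-coding rows alone (12383 rows) and over the 12462 rows whose average reached 1 on the log2 scale. In 7 of 10 cases it stayed within the 95% binomial interval of the value over all rows. Both alternatives are subsets of the same rows, so this interval is only a yardstick and measures no sampling error. *Gabrd* fell from 23.6 to 21.8 among protein-coding rows and to 21.3 among rows reaching 1, and *Gabra5* from 72.4 to 71.6 among rows reaching 1. The percentiles of all 5 genes were lower under both alternatives. Among rows reaching 1 this was fixed in advance, because every row left out lies below all 5 genes. The counts above the median were the same over protein-coding rows for all 6 lists of GABA genes. The promoter percentiles, whose alternative was chosen after seeing the data, kept their side of the median when the background was limited to genes with a row. No paired analysis was possible because the columns carry no replicate number that matches a dam, and for the same reason no fit without one dam, with another pseudocount or with another test was run. Levels per length and alignments of the proteins were not run. The methods give one approximate sequencing depth for all libraries, but the reads counted in each library were not obtained, so no limit of detection is given.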
